A study of Mus musculus with 8 samples.

Results

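The genes described here build cholesterol and fatty acids. A total of 34 genes were taken by name: 17 enzymes that make cholesterol from acetyl units (the sterol arm), 11 enzymes that make, elongate or desaturate fatty acids (the fatty acid arm), 5 regulators and 1 sterol carrier. Only probe sets with exactly 1 gene symbol in the platform annotation were used, and each gene was represented by its brightest one. All 34 were found among the 18782 genes measured. The tissue was the distal convoluted tubule (DCT), a nephron segment that reabsorbs sodium chloride behind the thick ascending limb. The TBC1D4-deficient group held 4 arrays and the wild-type group 4 arrays. All mice were males of the C57/Bl6 strain aged 8 weeks. Mice of both groups came from a cross with PV-EGFP transgenics, in which the parvalbumin promoter drives EGFP, and fluorescent tubules were collected with a large-particle sorter (COPAS). That promoter marks the part of the segment that makes parvalbumin. The labels name no tissue-restricted deletion, and they do not say that the arrays of a group came from separate animals, so the p-values below measure the spread between these arrays, which may be technical in part.

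TBC1D4 (AS160) is a GTPase-activating protein for Rab proteins that is phosphorylated downstream of insulin, and it is best known for holding glucose transporter vesicles inside cells. Sterol and fatty acid synthesis are run by a pair of related transcription factors, SREBP-2 (gene Srebf2) and SREBP-1 (gene Srebf1). Both are made as membrane proteins of the endoplasmic reticulum, where Scap binds them and the Insig proteins retain the complex while sterols are plentiful. When sterols fall, Scap carries them to the Golgi, proteases release the active part, and it binds sterol regulatory elements (SRE) in promoters, often next to the factor NF-Y on a CCAAT box. In liver SREBP-2 acts mostly on the sterol enzymes, and SREBP-1c, with the oxysterol receptor LXR and insulin, on the fatty acid enzymes and Scd1.

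Because most sterol enzymes moved together between arrays, the promoters of several members are shown, each from 250 bases before to 50 after the gene's start. The sequences are those of RefSeq, build GRCm38.p6, printed from 5′ to 3′ on the strand of the gene. Capitals mark CCAAT, read as ATTGG where it lies on the other strand, and the SRE written TCACNCCAC.
Hmgcs1 (chr13:119690101-119690400, plus strand): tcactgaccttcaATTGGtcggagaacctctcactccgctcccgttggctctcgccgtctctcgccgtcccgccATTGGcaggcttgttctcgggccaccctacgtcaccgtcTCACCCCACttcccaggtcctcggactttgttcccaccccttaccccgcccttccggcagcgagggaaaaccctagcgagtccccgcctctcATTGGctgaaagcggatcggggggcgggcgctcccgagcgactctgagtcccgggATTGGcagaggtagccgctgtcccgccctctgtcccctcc
Cyp51 (chr5:4104648-4104947, minus strand): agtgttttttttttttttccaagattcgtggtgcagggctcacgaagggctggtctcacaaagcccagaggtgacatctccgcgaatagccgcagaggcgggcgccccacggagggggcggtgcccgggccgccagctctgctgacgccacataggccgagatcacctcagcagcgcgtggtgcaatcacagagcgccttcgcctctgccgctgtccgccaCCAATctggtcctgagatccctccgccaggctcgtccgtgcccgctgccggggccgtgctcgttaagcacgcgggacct
Msmo1 (chr8:64733529-64733828, minus strand): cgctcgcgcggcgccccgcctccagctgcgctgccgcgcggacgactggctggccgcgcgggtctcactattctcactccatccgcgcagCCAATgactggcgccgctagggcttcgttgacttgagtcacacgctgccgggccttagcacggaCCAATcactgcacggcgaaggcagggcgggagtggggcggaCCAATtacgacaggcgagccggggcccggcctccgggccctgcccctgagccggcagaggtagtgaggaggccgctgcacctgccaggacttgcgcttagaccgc
Hsd17b7 (chr1:169969156-169969455, minus strand): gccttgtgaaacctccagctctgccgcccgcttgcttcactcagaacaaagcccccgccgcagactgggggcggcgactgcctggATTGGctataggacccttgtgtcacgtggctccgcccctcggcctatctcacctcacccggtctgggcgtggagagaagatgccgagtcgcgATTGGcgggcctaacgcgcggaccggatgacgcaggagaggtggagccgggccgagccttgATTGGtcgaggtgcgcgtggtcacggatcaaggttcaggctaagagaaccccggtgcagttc
Insig1 (chr5:28071162-28071461, plus strand): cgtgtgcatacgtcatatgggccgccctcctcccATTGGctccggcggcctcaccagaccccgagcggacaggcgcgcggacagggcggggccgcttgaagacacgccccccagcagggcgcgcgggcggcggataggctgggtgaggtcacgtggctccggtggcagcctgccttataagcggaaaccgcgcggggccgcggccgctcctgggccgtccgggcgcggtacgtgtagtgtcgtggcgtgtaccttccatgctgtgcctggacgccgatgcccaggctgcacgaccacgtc
Me1 (chr9:86695865-86696164, minus strand): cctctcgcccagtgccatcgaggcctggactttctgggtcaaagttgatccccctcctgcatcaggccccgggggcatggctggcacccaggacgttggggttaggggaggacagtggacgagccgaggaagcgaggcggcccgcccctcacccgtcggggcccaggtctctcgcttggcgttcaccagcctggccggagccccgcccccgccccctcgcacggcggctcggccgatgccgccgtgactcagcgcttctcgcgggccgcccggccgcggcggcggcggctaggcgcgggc
Fads2 (chr19:10101454-10101753, minus strand): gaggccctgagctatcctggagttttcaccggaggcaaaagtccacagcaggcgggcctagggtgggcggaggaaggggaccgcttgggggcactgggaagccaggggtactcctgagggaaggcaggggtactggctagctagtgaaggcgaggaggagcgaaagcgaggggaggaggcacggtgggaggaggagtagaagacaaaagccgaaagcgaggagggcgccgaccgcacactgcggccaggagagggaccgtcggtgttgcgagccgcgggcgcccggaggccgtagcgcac
These were the sterol enzymes of the upper and lower pathway, a feedback regulator and the pair of fatty acid genes that followed another pattern. Hmgcs1 held 4 CCAAT boxes and the SRE, and the letters of the motifs did not overlap there. Hsd17b7 and Msmo1 held 3 CCAAT boxes each, and Cyp51 and Insig1 held 1 each. The Fads2 promoter and the Me1 promoter shown, the first of 2 entries for Me1, held 0, while the other Me1 entry held the motif. Of the 34 members, 27 had an entry, while Fdps, Fdft1, Sqle, Stard4, Scd1, Scd2 and Fads1 had none. CCAAT, searched on both strands, lay in the window of 14 of 14 sterol enzymes with an entry and of 5 of 8 fatty acid enzymes, against 41.1% of all 27025 genes with an entry. The SRE was found in 1 of the 27 members, against 1.44% of all genes. The E-box CACGTG, left in lower case above, was found in 6 of the 27 members, against 8.09% of all genes. A match of letters in this window is a description of the sequence and does not show that a factor is bound. Only these exact letters in this window were searched, so a missing match does not show that an element is absent.

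Tbc1d4 itself ran from 2.21 to 2.72 log2 units in the TBC1D4-deficient arrays, against 6.58 to 6.94 in the wild-type arrays, which fits the labels. The table holds linear intensities without detection calls, and log2 was taken of them. The medians of the 8 arrays lay between 3.07 and 3.17 log2 units. A gene with a mean under 4 is called dim here, since its intensity may be background. Among the 34 members only Pmvk and Mvd were dim by this mean, while Scd1, with a mean of 4.45, lay under 4 on some arrays. The DCT markers Slc12a3, the thiazide-sensitive cotransporter, and Pvalb were bright on all 8 arrays, Slc12a3 at 11.47 to 11.51 in TBC1D4-deficient arrays and 11.45 to 11.56 in wild-type arrays. Pvalb, the gene whose promoter drove the sorting label, ran from 9.66 to 9.85 in TBC1D4-deficient arrays and from 9.57 to 9.74 in wild-type arrays. Markers of other nephron segments were present too, and varied between arrays as described below with the genes that moved with them. Of 11 adipocyte markers measured, 9 were dim. Adipoq lay at 1.84 to 1.96 in TBC1D4-deficient arrays and 1.87 to 2.09 in wild-type arrays, and Plin1 at 2.29 to 2.60 in TBC1D4-deficient arrays and 2.24 to 2.60 in wild-type arrays. Each array is named by its group and its replicate number in the sample titles.

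No member passed the test between the genotypes. With limma and Benjamini-Hochberg adjustment over 23039 probe sets, 0 of the 34 members had an adjusted p below 0.05, against 0.00434% of all probe sets, which was Tbc1d4 alone. At an unadjusted p below 0.05 there was 1 member, Scd1, against 2.9% of all probe sets. The groups did not overlap for 0 of the 34 members, against 1.85% of all probe sets. Every member's adjusted p was 0.9999. For 31 of the 34 members the 95% interval of the difference lay inside a 1.5-fold change in either direction, the exceptions being Scd1, Me1 and Fads2. The same held for 97.5% of all genes. The median difference of the 34 was -0.033 log2 units (TBC1D4-deficient minus wild-type), with 13 above 0 and 21 below, against a median of -0.00074 and 49.6% above 0 over all genes. That split of signs was not stable, since 5 of 34 lay above 0 within the arrays numbered 5 to 8 in the descriptions and 22 of 34 within those numbered 9 to 12.

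**Figure D1:**
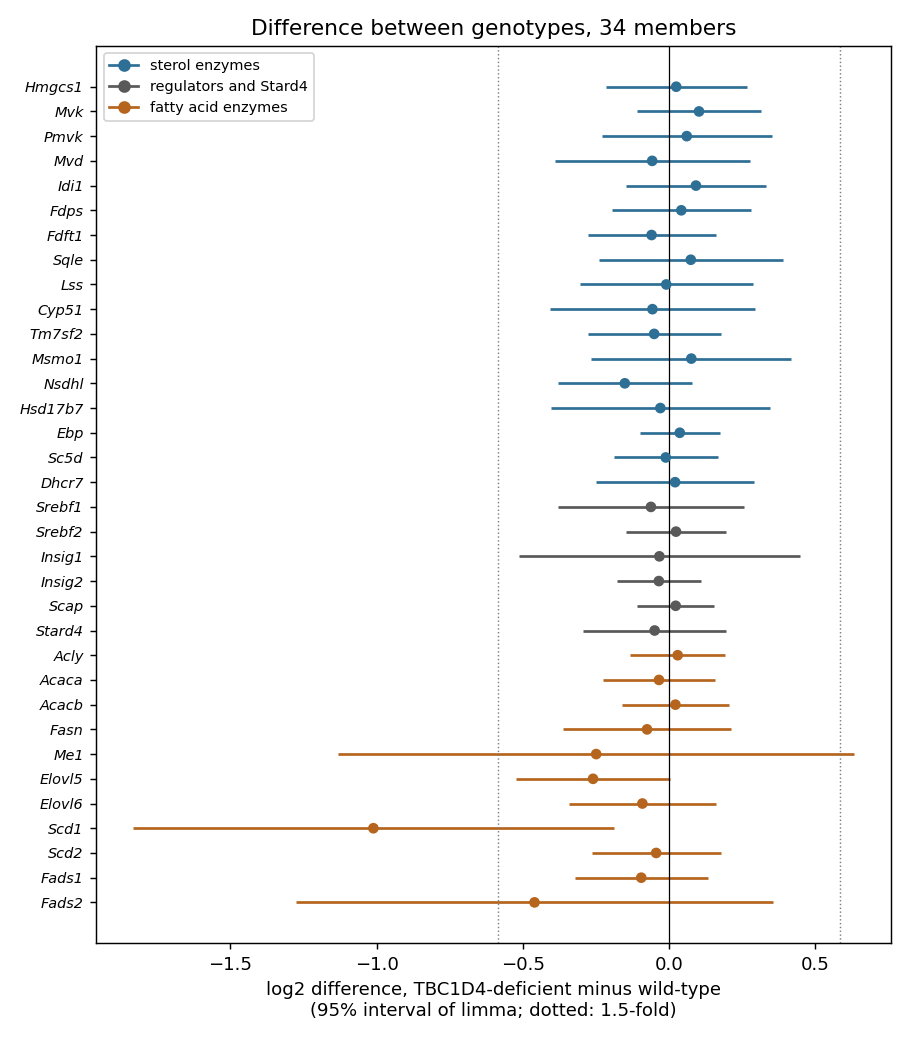
Log2 difference between TBC1D4-deficient and wild-type arrays for each of the 34 members (points), with the 95% interval of the limma fit (lines), 4 arrays a group. The dotted lines mark a 1.5-fold change. The intervals of 31 members lie between them, while those of Scd1, Me1 and Fads2 cross at least 1 of them.

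The sterol enzymes differed little between the genotypes. The mean difference of the 17 enzymes was 0.0063 log2 units and their median 0.021, with 9 above 0 and 8 below, and single enzymes ran from -0.15 (Nsdhl, a decarboxylating dehydrogenase of the C4 demethylation step) to 0.10 (Mvk, mevalonate kinase). All 17 intervals stayed inside a 1.5-fold change. Under quantile normalization the mean difference was 0.0053, and after centring every array on its median intensity it was 0.027. The mevalonate branch, which carries acetyl units to farnesyl diphosphate, had 5 of 6 enzymes above 0 with a median of 0.051. The steps from squalene to cholesterol had 4 of 11 above 0 with a median of -0.011. Neither branch had a member at an unadjusted p below 0.05.

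The sterol enzymes differed from array to array far more than from genotype to genotype, and most of them, though not Ebp, did so together. The level of the arm on an array was taken as the mean over its 17 enzymes of the log2 intensity minus that gene's mean over the 8 arrays. It was 0.058, 0.16, -0.22 and 0.011 in TBC1D4-deficient arrays 1 to 4, against 0.088, -0.16, 0.16 and -0.10 in wild-type arrays 1 to 4. TBC1D4-deficient array 2 and wild-type array 3 were the highest, TBC1D4-deficient array 3 and wild-type array 2 the lowest, and the groups overlapped over nearly their whole range, with an SD of 0.16 in TBC1D4-deficient arrays and 0.15 in wild-type arrays. In TBC1D4-deficient array 2 and in wild-type array 3, 16 of the 17 enzymes lay above their own mean, whereas in TBC1D4-deficient array 3 there were 2 of 17 and in wild-type array 2 there was 1 of 17. The median correlation between pairs of sterol enzymes over the 8 arrays was 0.589, with 118 of 136 pairs (86.8%) positive. Over all pairs of the 6875 genes with a mean of 5 or more, the median was 0.0383 and 53.4% were positive. These pairs share their arrays and the arrays' processing, so the values describe these 8 arrays only. The 6875 genes were not matched to the sterol enzymes for SD, and most of these enzymes ranked high among them by SD. The mean of the 6 enzymes of the mevalonate branch and that of the 11 later enzymes correlated at r = 0.916 (Spearman rho 0.905), and at 0.791 without TBC1D4-deficient array 3 and wild-type array 2, the arrays farthest from its median.

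Among the single sterol enzymes, those with the largest SD over the 8 arrays were Hsd17b7, Cyp51, Msmo1 and Mvd, at 0.27, 0.26, 0.25 and 0.24 log2 units. Hsd17b7, the 3-ketosteroid reductase of the C4 demethylation complex (probe set 10359917), had log2 intensities of 6.14, 6.23, 5.60 and 5.96 in TBC1D4-deficient arrays 1 to 4, against 6.25, 5.77, 6.31 and 5.72 in wild-type arrays 1 to 4. It averaged 5.98 ± 0.28 in TBC1D4-deficient arrays and 6.01 ± 0.31 in wild-type arrays (SD, n = 4 each), a difference of -0.029 (95% interval -0.40 to 0.35). The groups overlapped, and TBC1D4-deficient array 3 with wild-type arrays 2 and 4 were the low ones. Cyp51, the lanosterol 14-alpha demethylase (probe set 10527920), read 6.20, 6.36, 5.58 and 6.16 in TBC1D4-deficient arrays 1 to 4, against 6.36, 6.02, 6.20 and 5.95 in wild-type arrays 1 to 4. TBC1D4-deficient array 3 was again the lowest, and the other 3 TBC1D4-deficient arrays lay within the range of the wild-type arrays or just above it, and the difference was -0.057 (-0.41 to 0.29).

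Msmo1, the methylsterol oxidase that starts C4 demethylation (probe set 10578916), gave 8.08, 8.30, 7.75 and 8.09 in TBC1D4-deficient arrays 1 to 4, against 8.25, 7.81, 8.22 and 7.64 in wild-type arrays 1 to 4. The low arrays were those of Hsd17b7, and the difference of 0.076 (-0.27 to 0.42) was smaller than either group's SD. Mvd, the mevalonate diphosphate decarboxylase and a dim gene (probe set 10582310), gave 3.70, 3.98, 3.50 and 3.94 in TBC1D4-deficient arrays 1 to 4, against 3.55, 3.66, 4.19 and 3.96 in wild-type arrays 1 to 4. Its order of arrays was another one, with wild-type array 1 next to the lowest, and its difference was -0.057 (-0.39 to 0.28). Sqle, the squalene epoxidase that commits squalene to sterols, ran from 6.13 to 6.60 in TBC1D4-deficient arrays and from 5.97 to 6.50 in wild-type arrays. Hmgcs1, the synthase at the head of the mevalonate branch, ran from 7.39 to 7.90 in TBC1D4-deficient arrays and from 7.46 to 7.71 in wild-type arrays. Ebp, the sterol isomerase, was the steadiest of the 17 with an SD of 0.062, at 6.13 to 6.32 in TBC1D4-deficient arrays and 6.17 to 6.24 in wild-type arrays. It alone of the 17 ran against the mean of the other sterol enzymes, with r = -0.415. The SDs of the other 10 sterol enzymes lay between 0.10 and 0.21.

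Both SREBP genes followed the sterol arm across the arrays. Srebf1 (probe set 10386473) read 5.85, 6.06, 5.65 and 5.66 in TBC1D4-deficient arrays 1 to 4, against 6.04, 5.75, 6.15 and 5.52 in wild-type arrays 1 to 4, and correlated with the sterol level at r = 0.822 (rho 0.857). Srebf2 (probe set 10425695) read 7.57, 7.82, 7.51 and 7.62 in TBC1D4-deficient arrays 1 to 4, against 7.69, 7.54, 7.63 and 7.57 in wild-type arrays 1 to 4, with r = 0.785 (rho 0.952). For both, TBC1D4-deficient array 2 was among the highest, and the groups overlapped. Without TBC1D4-deficient array 3 and wild-type array 2 the correlations were 0.958 for Srebf1 and 0.661 for Srebf2. The mean level of the intercalated cell markers, given below, correlated at 0.851 with Srebf1 and 0.773 with Srebf2 over all arrays. The genotype differences were -0.062 (-0.38 to 0.25) for Srebf1 and 0.024 (-0.15 to 0.20) for Srebf2.

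Insig1, the retention protein that is itself an SREBP target, varied most among the regulators. It read 6.69, 6.59, 6.08 and 6.20 in TBC1D4-deficient arrays 1 to 4, against 6.95, 6.53, 6.38 and 5.84 in wild-type arrays 1 to 4 (probe set 10520362), a difference of -0.033 (-0.51 to 0.45). Its highest and lowest arrays were both wild-type, replicates 1 and 4, and its correlation with the sterol level was 0.541 (rho 0.571). Insig2 held between 6.91 and 7.09 in TBC1D4-deficient arrays and between 6.96 and 7.09 in wild-type arrays, with r = 0.665 (rho 0.405). Scap had an SD of 0.054, the smallest of all 34 members, and r = -0.388. Stard4, which carries cholesterol between membranes, ran from 6.48 to 6.83 in TBC1D4-deficient arrays and from 6.41 to 6.85 in wild-type arrays. Its r with the sterol level was 0.44 over the 8 arrays and -0.336 without TBC1D4-deficient array 3 and wild-type array 2.

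The fatty acid arm did not vary as 1 block. Its level was -0.22, 0.12, -0.14 and -0.17 in TBC1D4-deficient arrays 1 to 4, against 0.015, -0.11, 0.34 and 0.17 in wild-type arrays 1 to 4. Wild-type array 3 was the highest and TBC1D4-deficient array 1 the lowest, and the groups overlapped. The mean difference of the 11 enzymes was -0.21, their median -0.091, and 2 lay above 0 and 9 below. It was -0.13 without Scd1, and 0.020 with the mean of the endothelial markers as a covariate, a fit chosen after seeing the data. That marker mean did not overlap between the groups, so this fit cannot tell it apart from genotype. The median correlation between pairs of the 11 was 0.235 (55 pairs). Scd1, Me1 and Fads2 held 88.4% of the arm's sum of squares over the arrays.

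**Figure D2:**
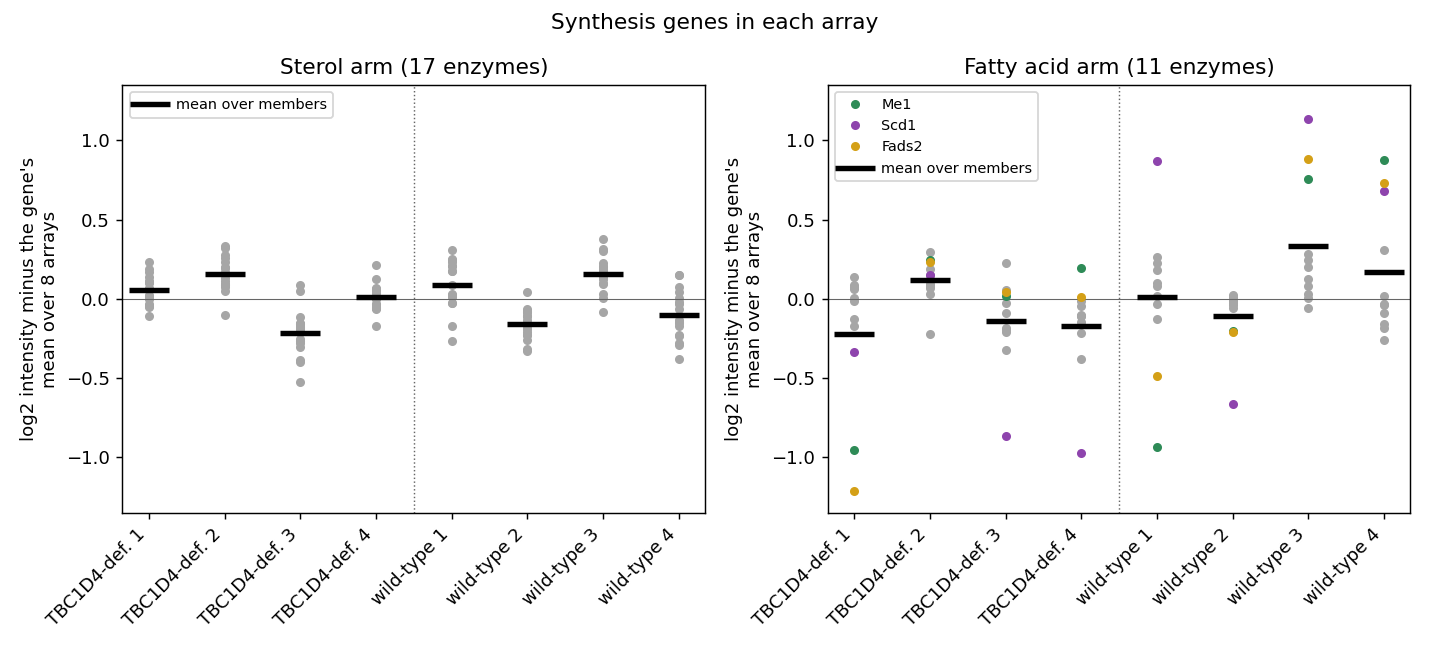
Log2 intensity of each enzyme minus that gene's mean over the 8 arrays (points), for the 17 sterol enzymes (left) and the 11 fatty acid enzymes (right), in TBC1D4-deficient arrays 1 to 4 and wild-type arrays 1 to 4. Black bars are the mean over the enzymes of an arm, and the vertical dotted line parts the groups. The sterol enzymes spread around their mean on each array, and Scd1, Me1 and Fads2 reach farthest from 0.

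The arms moved together in part, and how closely depended on those 3 enzymes. Over the 8 arrays the sterol and the fatty acid level correlated at r = 0.457 (rho 0.405), and at 0.254 without TBC1D4-deficient array 3 and wild-type array 2, the arrays farthest from the median sterol level. With each genotype centred on its own mean, r was 0.57. Without Scd1, Me1 and Fads2, a choice made after seeing the data, the remaining 8 fatty acid enzymes read 0.0084, 0.087, -0.092 and -0.14 in TBC1D4-deficient arrays 1 to 4, against 0.089, -0.013, 0.11 and -0.054 in wild-type arrays 1 to 4. Their r with the sterol level was 0.715 (rho 0.762), and 0.771 without the same 2 arrays. Both arms followed the 8 intercalated cell markers, as given below. With the mean of these markers regressed out of both levels, with all 11 fatty acid enzymes kept, r was -0.29. That fit was chosen after seeing the data. With the proximal tubule markers regressed out in the same way r was 0.688, and with the adipocyte markers 0.712. These correlations rest on 8 arrays that share a platform and processing, and they are descriptions.

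**Figure D3:**
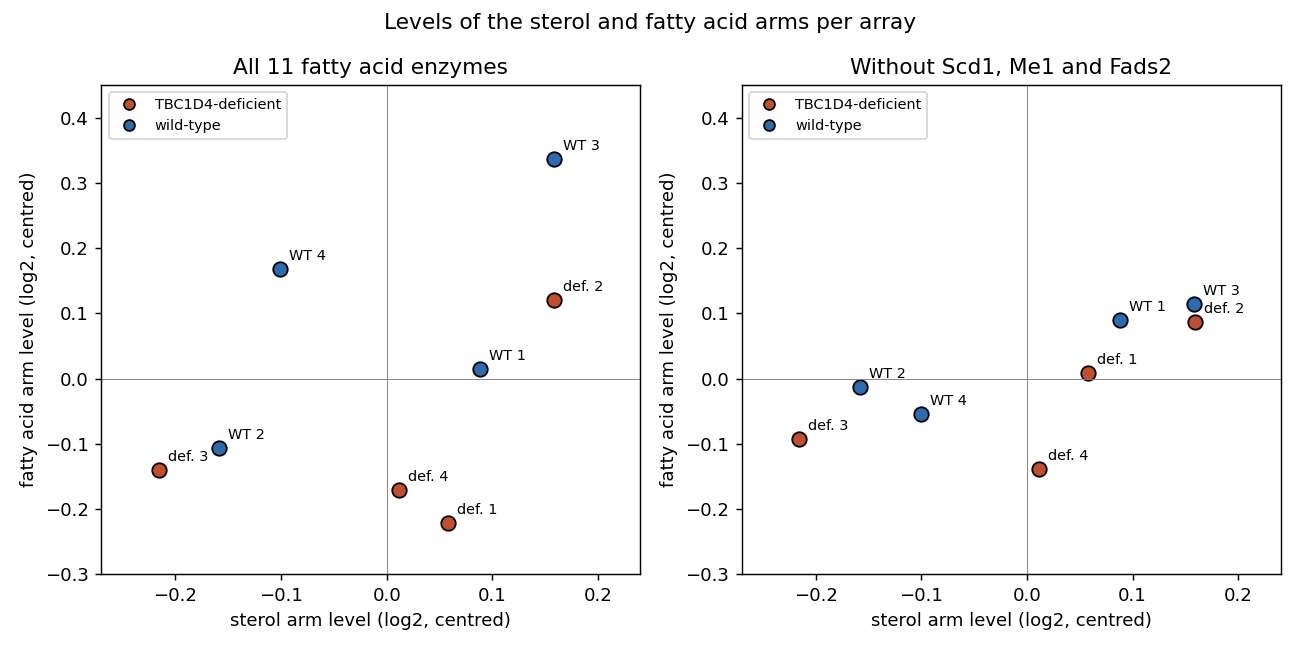
Level of the fatty acid arm against that of the sterol arm, 1 point an array, in log2 units centred on the mean over the 8 arrays, with all 11 fatty acid enzymes (left) and without Scd1, Me1 and Fads2 (right). Pearson's r is 0.457 on the left and 0.715 on the right, and the TBC1D4-deficient and wild-type points overlap along the sterol axis.

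The enzymes of fatty acid synthesis proper sided with the sterol arm, apart from Acacb and Me1. Fasn, the fatty acid synthase, had r = 0.816 with the sterol level and ran from 5.32 to 5.95 in TBC1D4-deficient arrays and from 5.56 to 5.94 in wild-type arrays. Acly, which makes cytosolic acetyl-CoA from citrate, had r = 0.71, at 6.83 to 6.95 in TBC1D4-deficient arrays and 6.67 to 6.94 in wild-type arrays. Acaca, the cytosolic acetyl-CoA carboxylase, had r = 0.563 and ran from 4.85 to 5.22 in TBC1D4-deficient arrays and from 5.03 to 5.17 in wild-type arrays. Acacb, the mitochondrial form whose product restrains fatty acid oxidation, was highest in TBC1D4-deficient array 3, at 7.61, where the sterol arm was lowest, and had r = -0.55. The genotype differences of these 4 enzymes lay between -0.075 (Fasn) and 0.030 (Acly), and the second probe set of Acaca gave -0.13.

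Among elongases and desaturases, Scd2, the delta-9 desaturase that is widely expressed outside the liver, had r = 0.824 with the sterol level and stayed between 10.29 and 10.63 in TBC1D4-deficient arrays and between 10.33 and 10.67 in wild-type arrays. Its genotype difference was -0.044 (-0.26 to 0.18). Elovl6, which elongates palmitate, had r = 0.727 and a difference of -0.091 (-0.34 to 0.16). Fads1, the delta-5 desaturase, ran against the sterol arm with r = -0.541, and its highest array was wild-type array 4, at 8.16.

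Elovl5, an elongase of polyunsaturated fatty acids (probe set 10587284), came closest to the unadjusted threshold after Scd1. It read 6.21, 6.52, 6.12 and 5.95 in TBC1D4-deficient arrays 1 to 4, against 6.60, 6.32, 6.58 and 6.35 in wild-type arrays 1 to 4. TBC1D4-deficient array 2 lay within the range of the wild-type arrays and the other 3 below it. The difference was -0.26 (-0.52 to 0.0050, limma adjusted p = 0.9999). With limma's trend and robust options, which let the prior spread vary with intensity and limit outliers, the interval was -0.50 to -0.021. The limma adjusted p was again 0.9999. The arrays numbered 5 to 8 alone gave -0.41, and those numbered 9 to 12 alone gave -0.11.

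Fads2 and Me1 followed the mean marker levels of other tubule segments. Fads2, the delta-6 desaturase (probe set 10465895), read 4.67, 6.11, 5.93 and 5.89 in TBC1D4-deficient arrays 1 to 4, against 5.40, 5.67, 6.76 and 6.61 in wild-type arrays 1 to 4. Me1, the cytosolic malic enzyme that supplies NADPH (probe set 10595480), read 4.70, 5.90, 5.67 and 5.85 in TBC1D4-deficient arrays 1 to 4, against 4.72, 5.45, 6.42 and 6.53 in wild-type arrays 1 to 4. Both were high in wild-type arrays 3 and 4 and low in TBC1D4-deficient array 1 and wild-type array 1, so the groups overlapped. The mean level of 20 proximal tubule markers, none of them dim, was -1.03, 0.24, 0.078 and 0.11 in TBC1D4-deficient arrays 1 to 4, against -0.54, -0.24, 0.70 and 0.69 in wild-type arrays 1 to 4. All 20 had a difference below 0, with a median of -0.28, and none was called.

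Over the 8 arrays this marker level correlated at 0.992 with Fads2 and 0.974 with Me1, at 0.337 with Scd1 and at -0.011 with the sterol arm. Without TBC1D4-deficient array 1 and wild-type array 1 it correlated at 0.983 with Fads2, 0.987 with Me1 and 0.873 with Scd1. In bulk samples, fewer cells of a type and less RNA per cell cannot be told apart. The genotype differences were -0.46 (-1.28 to 0.36) for Fads2 and -0.25 (-1.13 to 0.63) for Me1. With the marker level as a covariate the difference of Fads2 was -0.133 and that of Me1 0.098. Without TBC1D4-deficient array 1 the difference of Fads2 was -0.133 and that of Me1 0.028. Without wild-type array 3 that of Fads2 was -0.243, and without wild-type array 4 it was -0.293. The second probe set of Me1 gave -0.26.

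The mean level of 8 markers of the thick ascending limb, none of them dim, went with the same pair of genes. Taken singly, these 8 followed the proximal tubule level less, with a median r of 0.289. That median was 0.960 for the 20 proximal tubule markers that form the level. The mean level of the thick ascending limb markers was -0.16, 0.044, -0.011 and 0.0034 in TBC1D4-deficient arrays 1 to 4, against -0.079, -0.037, 0.20 and 0.046 in wild-type arrays 1 to 4. TBC1D4-deficient array 1 was the lowest and wild-type array 3 the highest, and the groups overlapped. It correlated at 0.940 with Fads2 and 0.874 with Me1, and at 0.919 and 0.936 without TBC1D4-deficient array 1 and wild-type array 3. With the fatty acid arm r was 0.832 over the 8 arrays and 0.471 without the same 2 arrays.

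**Figure D4:**
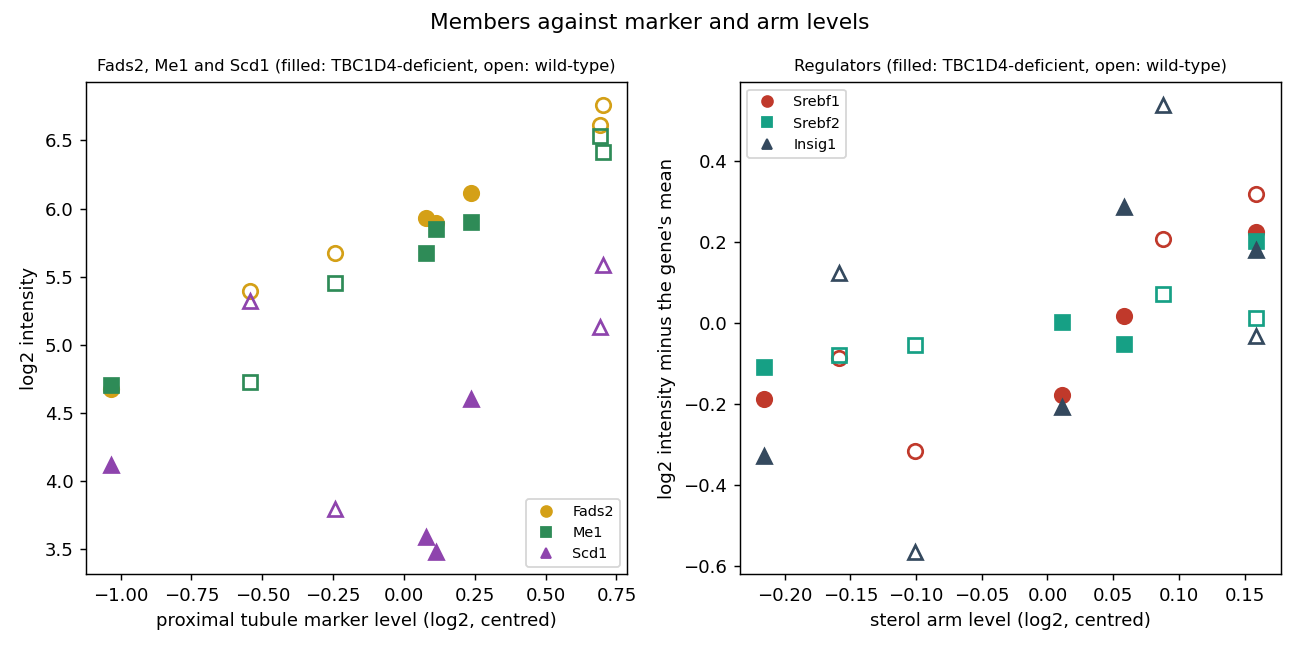
Left, log2 intensity of Fads2, Me1 and Scd1 against the mean centred log2 level of 20 proximal tubule markers. Right, log2 intensity of Srebf1, Srebf2 and Insig1 minus the gene's mean, against the level of the sterol arm. Filled symbols are TBC1D4-deficient and open symbols wild-type arrays, 8 in all. Fads2 and Me1 follow the marker axis with r of 0.992 and 0.974, while Scd1 has r of 0.337.

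Scd1, the delta-9 desaturase that makes oleate and palmitoleate and is the main form in liver, varied most of all members. Its SD over the 8 arrays was 0.83 log2 units. Its intensities (probe set 10467979, linear units) were 17.36, 24.29, 12.04 and 11.14 in TBC1D4-deficient arrays 1 to 4, against 39.96, 13.85, 48.08 and 35.06 in wild-type arrays 1 to 4. On the log2 scale these were 4.12, 4.60, 3.59 and 3.48 in TBC1D4-deficient arrays 1 to 4, against 5.32, 3.79, 5.59 and 5.13 in wild-type arrays 1 to 4. The lowest 2 arrays were TBC1D4-deficient and the highest 3 wild-type, and the groups overlapped because wild-type array 2 lay below TBC1D4-deficient arrays 1 and 2. TBC1D4-deficient arrays 3 and 4 and wild-type array 2 lay under 4, where the intensity may be background, so the size of any difference of Scd1 is uncertain.

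The means of Scd1 were 3.95 ± 0.52 in TBC1D4-deficient arrays and 4.96 ± 0.80 in wild-type arrays (SD, n = 4 each). The difference was -1.01 (SE 0.37, 95% interval -1.83 to -0.19), and limma gave an adjusted p = 0.9999. Under the trend and robust options of limma the interval was -2.11 to 0.091, which includes 0. Over the 70 possible assignments of arrays to groups, an exact 2-sided permutation test gave p = 0.0857, where the smallest possible is 0.0286. Without wild-type array 2 the difference was -1.40, and without wild-type array 3 it was -0.80. With 16 added to every intensity before taking log2 it was -0.60.

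The arrays carry a second label, an identifier of unstated meaning, and Scd1 divided cleanly by it. The identifiers in the sample descriptions fall into a higher run, held by TBC1D4-deficient array 2 and wild-type arrays 1, 3 and 4, and a lower run, held by TBC1D4-deficient arrays 1, 3 and 4 and wild-type array 2. Scd1 averaged 5.16 ± 0.42 in the 4 arrays of the higher run and 3.74 ± 0.28 in the 4 arrays of the lower run (SD), and the intensities did not overlap, at 24.29 to 48.08 in the higher run and 11.14 to 17.36 in the lower run. Each run holds 3 arrays of 1 genotype and 1 of the other, so the run and the genotype are largely confounded. With the run as a covariate the genotype difference of Scd1 was -0.40, that of Elovl5 -0.105 and that of Fads2 -0.16. Within the higher run it was -0.74, and within the lower run -0.063, each with 1 array on 1 side, which was assumed to vary like the other side. Within the arrays numbered 5 to 8 in the descriptions the genotype difference was -1.16 and within those numbered 9 to 12 it was -0.87, 2 arrays of each genotype in both.

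**Figure D5:**
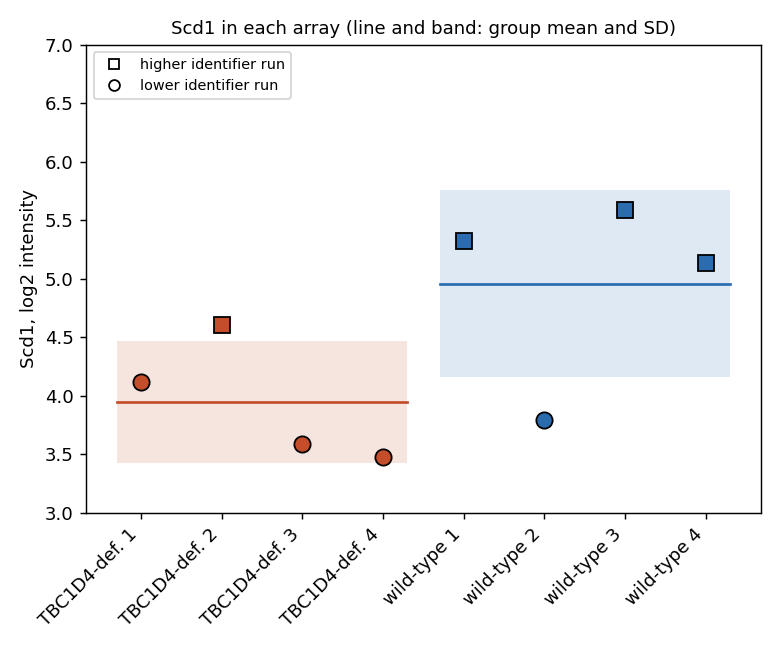
Log2 intensity of Scd1 in TBC1D4-deficient arrays 1 to 4 (red) and wild-type arrays 1 to 4 (blue), with the group mean as a line and the SD as a band, n = 4 each. Squares are arrays with an identifier of the higher run and circles those of the lower run. All 4 squares lie at 4.60 or above and all 4 circles at 4.12 or below.

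The contrast between the identifier runs, with genotype as a covariate, was added after the values of Scd1 had been seen, and so it is descriptive. Scd1 was higher by 1.21 log2 units (0.76 to 1.67) in the higher than in the lower run, with limma adjusted p = 0.831. No probe set was called (smallest adjusted p 0.548), and 4.9% of all probe sets had an unadjusted p below 0.05. Among the members it was 7 of 34, all higher in the higher run: Hmgcs1 (0.28), Sqle (0.37), Tm7sf2, a sterol C14 reductase (0.27), Nsdhl (0.28), Srebf2 (0.17), Elovl5 (0.31) and Scd1. In all, 31 of 34 members lay above 0 in that contrast, against 50.6% of all genes, and the sterol arm had 16 of 17 with a median of 0.22. Most sterol enzymes moved together, so their signs are not separate observations. The level of the sterol arm overlapped between the runs. It was -0.10 in wild-type array 4 of the higher run and 0.058 in TBC1D4-deficient array 1 of the lower run. The 4 arrays of each run did not overlap for 4 of 34 members, namely Tm7sf2, Nsdhl, Elovl5 and Scd1, against 2.78% of all probe sets.

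The differences between the genotypes in the arrays numbered 5 to 8 and in those numbered 9 to 12 were compared by an interaction term. It was called for 0 of the 34 members and 0 probe sets, and at an unadjusted p below 0.05 for 1 of the 34, Fasn (a difference 0.56 higher in 9 to 12, limma adjusted p = 0.9994), against 4.51% of all probe sets. For Scd1 the interaction was 0.29. The mean difference of the sterol arm was -0.10 within 5 to 8 and 0.11 within 9 to 12.

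Markers of other cell types moved with the sterol arm and Scd1. The mean level of 8 intercalated cell markers was -0.26, 0.32, -0.23 and -0.19 in TBC1D4-deficient arrays 1 to 4, against 0.31, -0.18, 0.37 and -0.12 in wild-type arrays 1 to 4. The arrays above 0 were TBC1D4-deficient array 2 and wild-type arrays 1 and 3, and these were also the 3 highest for the sterol arm. This level correlated at 0.757 with the sterol arm, 0.765 with the fatty acid arm and 0.777 with Scd1. Without TBC1D4-deficient array 2 and wild-type array 3, the arrays farthest from its median, these were 0.499, 0.495 and 0.752. The 7 principal cell markers measured correlated at 0.781 with the sterol arm and 0.743 with Scd1, and at 0.486 and 0.495 without TBC1D4-deficient array 3 and wild-type array 3. None of the 8 intercalated and 2 of the 7 principal cell markers were dim. Aqp6, a channel of intercalated cells, ran from 4.65 to 6.38 in TBC1D4-deficient arrays and from 4.73 to 6.54 in wild-type arrays.

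The 12 endothelial markers, 9 of them dim, had a level of -0.40, -0.015, 0.0011 and -0.16 in TBC1D4-deficient arrays 1 to 4, against 0.12, 0.030, 0.20 and 0.21 in wild-type arrays 1 to 4, so that these groups did not overlap. All 12 had a difference below 0, 7 of them at an unadjusted p below 0.05. That level correlated at 0.639 with Scd1, 0.783 with the fatty acid arm and -0.054 with the sterol arm. Without TBC1D4-deficient array 1 and wild-type array 4 these were 0.845, 0.750 and 0.325. The genotype difference of Scd1 was -0.67 with the intercalated level as a covariate and -0.62 with the endothelial level, both chosen after seeing the data, and -0.94 with the proximal tubule level. Because the endothelial level parted the groups, it and the genotype cannot be told apart in such a fit. The level of the 11 DCT markers measured ran over only 0.13 log2 units in all and correlated at -0.794 with the sterol arm, and at -0.226 without TBC1D4-deficient array 3 and wild-type array 2. The part of these other cells in the pattern of the members was not tested beyond these fits.

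Genes of the neighbouring pathways gave no calls either. Of 17 measured among 22 other genes of the SREBP pathway, 8 lay above 0 and 9 below with a median of -0.0011, and 0 were called. Pnpla3, a lipid droplet protein and a dim gene, differed by -0.16 and Npc2, a lysosomal cholesterol carrier, by 0.12. Of 8 measured among 10 LXR genes, 4 lay above 0 and 4 below. Abcg1, a sterol exporter and LXR product, read 5.59, 5.64, 5.38 and 5.22 in TBC1D4-deficient arrays 1 to 4, against 5.98, 5.63, 5.86 and 5.62 in wild-type arrays 1 to 4. Its difference was -0.31 (-0.56 to -0.063, limma adjusted p = 0.9999), and TBC1D4-deficient array 2 lay just above the lowest wild-type arrays. Abca1, the other sterol exporter of the list, differed by -0.18 (-0.53 to 0.18).

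The list for ChREBP and MondoA, the sugar-sensing factors, held 7 genes, among them the genes of the factors themselves. It split into 3 above 0 and 4 below, with Arrdc4 at 0.15 and the dim gene Pklr at -0.19. Of 17 other desaturases and elongases 7 lay above 0, with the dim gene Elovl3 at 0.13 and Hacd1 at -0.14. Among 17 measured of 19 triglyceride and lipid droplet genes 7 lay above 0, with the dim gene Plin4 at 0.22 and Gpat4, a glycerol phosphate acyltransferase, at 0.14. Of 9 measured among 10 genes of NADPH supply 6 lay above 0, with Pgls, of the pentose phosphate pathway, at 0.097. None of these 4 lists held a called gene. Fads3, Dgat2 and Cideb, lipid genes outside the 34 members that were picked for this value, correlated with the proximal tubule level at 0.989, 0.993 and 0.985, much as Fads2 and Me1 did.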

How the data were processed

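RNA of sorted DCT from 4 TBC1D4-deficient and 4 wild-type samples was turned into labelled cDNA (100 ng of RNA each) and read on 1-colour Affymetrix arrays, per the labels' protocols. The authors deposited linear intensity values for 28371 probe sets. Affymetrix Power Tools was used, per the submitters' processing notes, and its version, summarisation and normalization were not given in the sources used here. If the arrays were forced to equal distributions, a shift common to most genes cannot be seen. The number of arrays limits the precision.

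No further normalization, filter or constant was applied to the log2 values, which were fitted by genotype using limma 3.58.1 under R 4.3.3 (2-sided, no covariate, Benjamini-Hochberg, threshold 0.05) over 23039 probe sets with a symbol, 21158 of them with exactly 1. The scripts were tested on simulated data. The members, lists and alternatives were chosen with earlier results of these data known. Genes named with values on each array are Scd1, Srebf1, Srebf2, Insig1 and the 4 members of each arm with the largest SD, with Abcg1 and the marker levels added. From each other pathway list 2 genes at most are named for the smallest p. Fads3, Dgat2 and Cideb, from these lists too, were added for their r with the proximal tubule level. Alternatives changed the filter, scaling, prior, weights, covariates, arrays and probe sets. Promoters and chromosomes come from RefSeq (GRCm38.p6).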

Additional observations from a re-analysis of the deposited data

Results flagged for a closer look

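Among 72 groups of 4 arrays checked (each member and the level of each arm in each genotype), 1 held an array far from the others. Fads2 read 4.67 in TBC1D4-deficient replicate 1, and the nearest TBC1D4-deficient array read 5.89, so that the gap made up 0.848 of the group's range. Chance alone would mark about 1 in 20 such groups. The same array was the lowest of the 8 for the proximal tubule markers, at -1.03.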

How the results depend on the processing

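The count of called probe sets was 1 under 26 of 27 alternatives and 13 within the higher identifier run (1 TBC1D4-deficient against 3 wild-type arrays, added after seeing the data), all 13 lower in the TBC1D4-deficient array. The count of called members was 0 under each of the 27, and the interaction gave 0 calls under each of 3. The sterol arm's difference ran from -0.10 to 0.11 over 29 alternatives. The fatty acid arm's ran from -0.28 to 0.0201 over 30, the last with the endothelial marker mean as a covariate, which did not overlap between the groups. Scd1 ran from -1.40 to -0.063 over 28. The arm correlation was 0.778 with the median over members in place of the mean and -0.29 for residuals on the intercalated cell markers, and 0.226 to 0.715 under the other 20. With the arrays numbered 9 to 12 alone, Hsd17b7 was 0.203, Cyp51 0.13, Mvd 0.0885, Srebf1 0.175 and Insig1 0.247. With those numbered 5 to 8 alone, Msmo1 was -0.0945 and Srebf2 -0.0188. With the identifier run as a covariate, Hsd17b7 was 0.133, Cyp51 0.0746, Mvd 0.0695 and Srebf1 0.062. With proximal tubule markers as a covariate, Me1 was 0.0977 and Mvd 0.0297, and with adipocyte markers Me1 was 0.00921, Msmo1 -0.0645 and Srebf2 -0.0291. Leaving out each array in turn gave Me1 -0.601 to 0.0282, Hsd17b7 -0.128 to 0.0989, Cyp51 -0.151 to 0.109, Msmo1 -0.0373 to 0.177, Mvd -0.155 to 0.0596, Srebf1 -0.177 to 0.0338, Srebf2 -0.0397 to 0.0639 and Insig1 -0.226 to 0.141. These differences lie near 0, none was called, and the cause was not tested. With the replicate number as a block, 1 probe set and 0 members were called and Scd1 was -1.01. The labels state no pairing by replicate number. Same-numbered arrays' deviations correlated at 0.402, -0.189, 0.0390 and 0.0117, which shows no steady pairing but cannot exclude one. The values of the dim members Pmvk and Mvd may be background.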

Other observations

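Among 497 other genes with a mean of 5 or more and an SD of at least 0.2 log2 units over the arrays, those most like Scd1 were Plet1 (r = 0.939), Serpinb9, a granzyme inhibitor (0.903), Slc6a6, the taurine transporter (0.884), Avpr1a, a vasopressin receptor (0.879) and Rhoc (0.869). The least alike were Adamtsl2 (-0.945), 1700028J19Rik (-0.897) and Grin3a (-0.887). An r of 0.8 or more with Scd1 was reached by 16 of the 497 genes (3.22%). The genes most like the sterol arm's level were Prkar1b, a regulatory subunit of protein kinase A (0.961), Tmem178 (0.943), Scube3 (0.943), Tubb2b (0.923) and Atp6v1c2, a subunit of the vacuolar proton pump (0.914), and 14 of 497 (2.82%) reached 0.8. These likenesses were computed over the 8 arrays and are descriptions.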
